A study of Arabidopsis thaliana with 4 samples.

Results

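Arabidopsis thaliana has a compact genome, and many of its genes are separated by short stretches of DNA that hold the promoter or the end of both neighbours. The regions described here are places associated with FHY1 in such stretches. They were chosen from the deposited peak lists in 2 steps. A stretch of DNA counted as a shared region where peaks from 2 or 3 of the replicate lists overlapped, and a shared region was kept if its midpoint lay in no annotated gene and in a gap of 1000 bp or less between neighbouring protein-coding genes. This gave 2427 of 17470 shared regions (13.9%), lying in 2389 different gaps. They are called short-gap regions below. The positions of the peaks chose them, so their number and place are given as a description, without a test. A further 77 midpoints lay in short gaps but inside another annotated gene, and were left out.

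DNA bound with FHY1 was recovered by ChIP-seq, the sequencing of immunoprecipitated chromatin, from seedlings that carried 35S:GFP-FHY1 in the fhy1-1 mutant background, which were 4 days old, grown in darkness and then given far-red light for 3 h. All samples share this genotype and treatment: 3 biological replicates of the ChIP and 1 input sample, which was not analysed here. The 35S promoter drives the fusion constitutively, so the sites are those of a protein made outside its own expression pattern. GEO's labels name an anti-GFP antibody and the design text and growth protocol an antibody against FHY1, and which was used was not settled here. The question was whether FHY1 and the photoreceptor phytochrome A associate with the same genes in far-red light. No second light condition or genotype was analysed here. The replicate lists held 8423, 28170 and 19150 peaks, with 4541953, 12651543 and 10390173 tags in them, and the depth of the libraries is unknown.

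FHY1 is a small protein that brings the photoreceptor phytochrome A into the nucleus in far-red light. It has no known DNA-binding domain of its own and is thought to reach chromatin through phytochrome A and transcription factors. A gap between genes that are transcribed away from each other holds both promoters, a gap between genes in the same direction holds the end of one and the promoter of the next, and a gap between genes that face each other holds both ends. The gene table used here gives no strand, so divergent, tandem and convergent gaps were not told apart, and no sequence of the regions was read.

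Short gaps were common, and fewer than 1 in 5 held a region. Neighbouring protein-coding genes were separated by 23803 gaps, of which 12729 were 1000 bp or shorter, with a median of 298 bp. A region midpoint lay in 2389 of them (18.8%), against 43% of the 11074 longer gaps, which offer more room. Replicate 1 had a peak midpoint in 8.53% of the short gaps, replicate 2 in 22.6% and replicate 3 in 18.3% (16.5% ± 7.21, SD, n = 3). These shares followed the sizes of the lists. Without replicate 2 the regions fell to 1179 (9.22% of gaps) and without replicate 3 to 1248 (9.70%). On chromosomes 1 to 5 the share of short gaps with a region ranged from 17.0% on chromosome 2 to 21.0% on chromosome 3.

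The longer a gap, the more often it held a midpoint, while midpoints per length of gap sequence became fewer. Of gaps up to 250 bp, 591 of 5681 had one (10.4%). This share was 22.8% for gaps above 250 and up to 500 bp, 26% up to 750 bp and 29.4% up to 1000 bp. Each of the 3 replicate lists showed the same order on its own, from 5.39% to 13.4% in replicate 1, from 10.6% to 38.8% in replicate 2 and from 9.26% to 29.4% in replicate 3. Counted per Mb of gap sequence outside annotated genes, midpoints numbered 962 in the shortest class, 635 and 443 in the next ones and 371 in the longest, against 193 in gaps over 1000 bp. Regions also lay over short gaps without being centred there. In all, 4781 short gaps (37.6%) were overlapped by a shared region, and 2960 (23.3%) were covered from end to end.

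**Figure D1:**
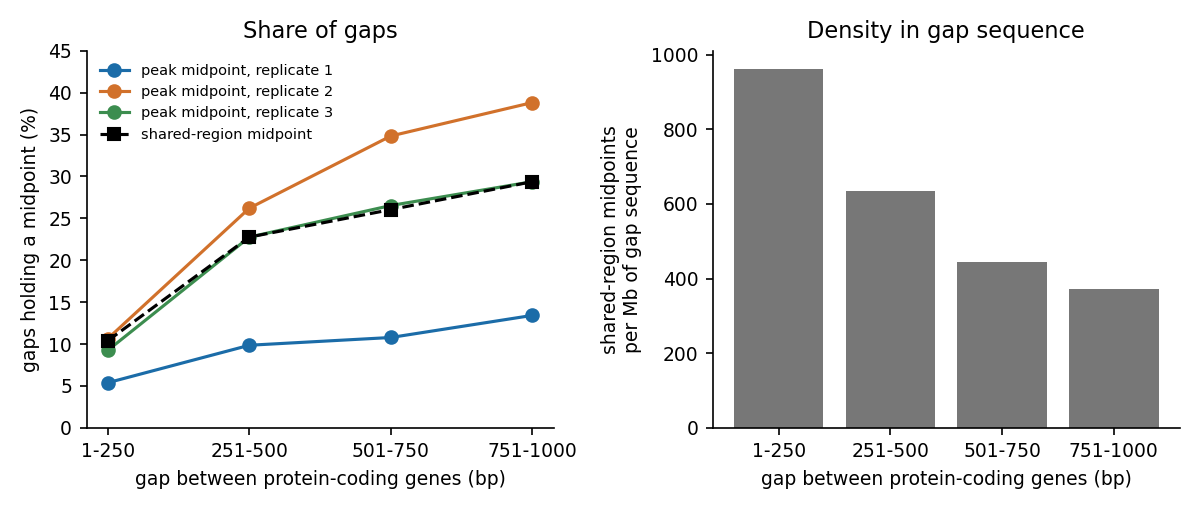
Left, share of gaps that hold the midpoint of a peak in each replicate list (coloured lines) or of a shared region (black dashed line), in percent, by gap length in bp. Right, shared-region midpoints per Mb of gap sequence. The share rose from 10.4% to 29.4% with gap length, while the density fell from 962 to 371 per Mb.

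A typical short-gap region was wider than its gap and ran into the genes on both sides. The regions had a median width of 830 bp, against 704 bp for all other shared regions. Of the 2427 regions, 1545 (63.7%) covered the whole gap and reached into both genes, 736 (30.3%) reached into 1 gene and 146 (6.02%) stayed inside the gap. Peaks of single replicates centred in short gaps did so at 72.9%, 61.3% and 71.4% in replicates 1, 2 and 3. Reaching both genes was the rule in the shortest gaps, at 99.5%, and was seen for 82.6%, 46.7% and 20.8% of regions in the 3 longer classes. Midpoints had to lie in the gap, and the median width was 796 to 864 bp in every class. This fall with gap length was therefore largely fixed by the choice of regions. Where both genes were reached, the median overlap was 247 bp in the gene entered less and 377 bp in the gene entered more.

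Assigning each region to 1 nearest gene leaves out many of the genes it reaches. The median distance from a midpoint to the nearer gene was 87 bp. Short-gap regions reached 3664 protein-coding genes. Of these, 1073 (29.3%) neither held the midpoint of any shared region nor were the nearest gene to one. Among them were 5 genes of the light and clock lists used below. SPA1 encodes a partner of the ubiquitin ligase COP1 and represses phytochrome A responses, CCA1 encodes a morning clock factor of the MYB class, BBX19 and BBX23 encode B-box proteins, and CGA1, also known as GNL, encodes a GATA factor involved in chloroplast development.

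**Figure D2:**
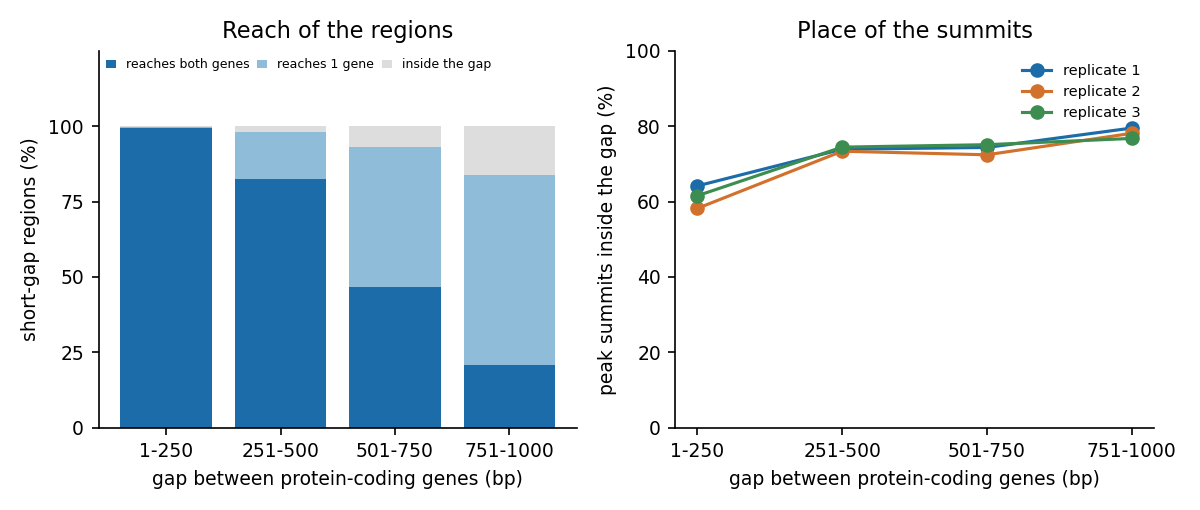
Left, percent of short-gap regions that reach into both flanking genes, into 1 gene or stay inside the gap, by gap length in bp. Right, percent of peak summits that lie inside the gap, in each replicate. Nearly all regions in gaps up to 250 bp reached both genes (99.5%), and 58.2% to 79.5% of summits lay inside the gap.

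Although most regions extended into genes, the summits of their peaks lay mostly in the gap. The summit is the position of the greatest pile-up as the authors' lists give it. For the highest-scoring peak under each region, it lay in the gap in 72.6%, 70.6% and 72.1% of cases in replicates 1, 2 and 3 (71.8% ± 1.01, SD, n = 3), while the gap held 33.4%, 40.6% and 38.4% of the bases of the same peaks. The rule had asked for midpoints in the gap, so a high share was fixed in part by the choice. The remaining summits were split evenly between the sides, with 13.6% to 14.6% on the left gene's side of the gap and 13.8% to 14.7% on the right. Left and right follow chromosome coordinates and not gene direction, so an even split tells nothing about gene starts or ends.

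Within the wider gaps, summits lay nearer to the genes than to the middle. In gaps of 500 to 1000 bp, 59.0%, 51.4% and 56.1% of the summits in the gap lay within 20% of the gap length from one or the other edge in replicates 1, 2 and 3, whereas an even spread would put 40% there. The central part, from 40% to 50% of the length, held 11.0%, 15.9% and 13.4%, against 20% for an even spread. Midpoints of shared regions showed the same decline with distance. In short gaps their density was 683 per Mb within 100 bp of a gene end and 326 per Mb at 400 to 499 bp, and in longer gaps it was 505 and 230 per Mb at the same distances. Short gaps of all lengths were pooled, and only the longest hold positions 400 to 499 bp from the nearer gene. Distance and gap length were therefore not separated in short gaps. At each of the 5 distances up to 500 bp the short gaps had the higher density, and a gene end also lay on the far side there. Which of the edges are starts of genes is not known from the table used.

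**Figure D3:**
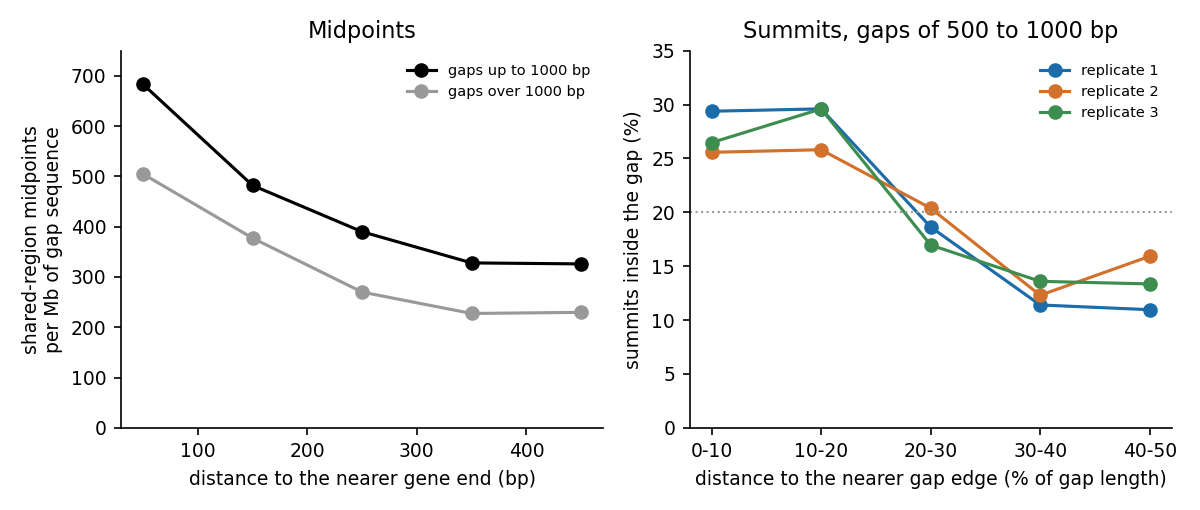
Left, shared-region midpoints per Mb of gap sequence by distance in bp to the nearer gene end, for gaps up to 1000 bp (black) and longer gaps (grey). Right, percent of in-gap summits by distance to the nearer gap edge as a percent of gap length, for gaps of 500 to 1000 bp in each replicate, where the dotted line marks an even spread. Both fall away from the gene ends, from 683 to 326 midpoints per Mb in short gaps.

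The replicates placed their summits close together in these regions. The median distance between summits of the same region was 62 bp for replicates 1 and 2, 48.5 bp for replicates 1 and 3, and 82 bp for replicates 2 and 3. In regions of longer gaps it was 83, 56 and 137 bp for the same pairs, and in regions centred in protein-coding genes 87, 65 and 113 bp. Both of these classes held narrower regions, with median widths of 700 and 704 bp against 830 bp. Summit distances were not compared within width classes. The 3 pairs share replicates, and the differences were not tested. Among the 1002 short-gap regions with a peak in all 3 replicates, all 3 summits lay in the gap for 539 (53.8%). They lay outside the gap on the side of the same gene for 63 (6.29%), and summits fell on the sides of opposite genes for 59 (5.89%).

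Fold enrichment in short gaps was above that inside genes in each replicate. It was below that in longer gaps in each replicate once regions of like width were compared. The authors' fold enrichment, over a background that is not stated, had medians of 4.06, 4.38 and 4.43 in short-gap regions in replicates 1, 2 and 3, taken from the highest-scoring peak under each region. In regions centred in protein-coding genes the medians were 3.96, 4.16 and 4.24. The difference was 0.17 ± 0.06 (SD, n = 3) and positive in 3 of 3 replicates, with a two-sided p of 0.25 in an exact sign-flip permutation test, the smallest that 3 replicates allow. Short-gap regions were wider, and with 4 classes of region width given equal weight this difference was 0.07 ± 0.03 (exact permutation p = 0.25), positive in 3 of 3 replicates. In longer gaps the medians were 4.25, 4.43 and 4.42, and the difference of -0.075 ± 0.100 (SD, n = 3) was smaller than the spread between replicates (exact permutation p = 0.5). Over the width classes it was -0.28, -0.15 and -0.11 in replicates 1, 2 and 3, or -0.18 ± 0.09 (SD, n = 3, exact permutation p = 0.25), and it was negative in all 12 combinations of class and replicate. Against all other shared regions it was 0.05 ± 0.07 (SD, n = 3, exact permutation p = 0.5), negative in replicate 1 and positive in replicates 2 and 3. Over the width classes this difference was -0.044 ± 0.039 (SD, n = 3, exact permutation p = 0.25). Tags under the peaks had medians of 516, 594 and 603 in short-gap regions, above those of the other regions by 80.7 ± 17.2 (SD, n = 3), and the peaks themselves were longer, by 68.5 ± 4.27 bp (SD, n = 3). Both measures were higher in short gaps in 3 of 3 replicates (exact permutation p = 0.25).

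A larger share of short-gap regions than of other regions had a peak in every replicate, and the short-gap regions were also wider. All 3 replicates covered 1002 of them (41.3%), against 33.6% of all shared regions and 32.3% of those that were not in short gaps. Replicate 1, the shortest list, had a peak in 54.8% of short-gap regions and in 46.7% of the others. The share rose steeply with width in both sets. It was 1.97% and 1.5% for short-gap and other regions up to 500 bp wide, 14.98% and 20.01% above that and up to 750 bp, 47.2% and 46.0% up to 1000 bp, and 73.5% and 69.4% for wider ones. With each width class given equal weight, the shares were 34.4% and 34.2%, so the difference of 8.96 percentage points became 0.19.

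A region counted as on the authors' list for the whole series if it overlapped a stretch common to the list's 3 samples. These are ChIP samples of this same series, so the list gives no independent support. It was also the stricter of the 2 measures, with 2921 shared regions on it against 5865 covered by all 3 replicates. The list gave a similar picture. It held 500 of the short-gap regions (20.6%), against 16.7% of all shared regions, and with equal weight on the width classes the shares of short-gap and other regions were 17.3% and 16.9%. Taken by their own midpoints, 539 of the 3419 regions on that list (15.8%) lay in short gaps. Their median peak heights were 151, 217 and 185 in the list's samples 1, 2 and 3, which could not be matched to replicate numbers. Elsewhere on the list the medians were 134, 186 and 161. Short-gap heights were above the others in 3 of 3 samples, by 24 ± 7 (SD, n = 3, exact sign-flip permutation p = 0.25, the smallest possible). The highest short-gap region on the list lay between AT1G06550 and AT1G06560, on chromosome 1 from 2007001 to 2007641, with heights of 398, 455 and 474.

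**Figure D4:**
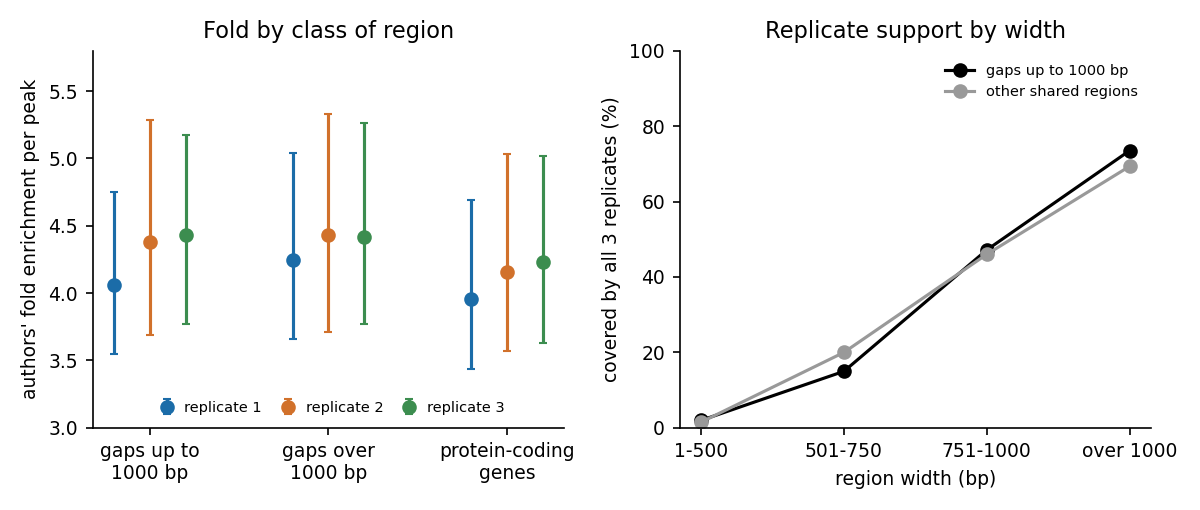
Left, median (point) and quartiles (bars) of the authors' fold enrichment of the highest-scoring peak under each region, by class of region and replicate. The axis starts at 3. Right, percent of regions covered by all 3 replicates by region width in bp, for short-gap and other shared regions. Medians lie between 3.96 and 4.43, and the lines for replicate support run close together.

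The 15 regions that ranked highest by the authors' score lay beside genes of unlike function. They were taken from the 1002 regions covered by all 3 replicates, by the mean percentile of the score in each list, and the last of them stood at a mean percentile of 94.8. Their gaps were 307 to 921 bp long, 13 of the 15 reached both genes, and 9 were on the series list. Folds ranged from 3.76 to 7.92 in replicate 1, from 4.72 to 8.73 in replicate 2 and from 3.81 to 8.59 in replicate 3. The deposited false discovery rate was as high as 3.90%, 3.07% and 4.58% among them, so a high score did not mean a low rate. All coordinates below are in TAIR10.

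First in rank was a region on chromosome 3 from 2611068 to 2612706, between iPGAM2, for a phosphoglycerate mutase of glycolysis, and AT3G08600. Its gap was 619 bp long and the folds were 4.93, 7.47 and 7, with 1008, 1310 and 1305 tags in replicates 1, 2 and 3. Replicate 1 was the lowest in both measures, and all 3 summits lay in the gap. RAD23B, for a ubiquitin-binding protein of protein turnover and DNA repair, shared a gap of 307 bp with AT1G79660, where the region ran from 29974906 to 29976111 on chromosome 1. Folds there were 4.71, 5.83 and 6.58, with all 3 summits in the gap.

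PAO1, for a polyamine oxidase, and SMT1, for a methyltransferase at the start of plant sterol synthesis, lay 459 bp apart. Their region on chromosome 5 from 4422726 to 4424161 reached 370 bp into PAO1 and 607 bp into SMT1, with folds of 5.68, 8.19 and 5.83. MCM10, for a DNA replication factor, and SYTA, for a synaptotagmin of membrane contact sites, were 506 bp apart, with a region on chromosome 2 from 9013675 to 9015052 and folds of 7.74, 5.59 and 8.59. In both pairs every summit was in the gap, and the replicate with the highest fold differed, being replicate 2 at PAO1 and SMT1 and replicate 3 at MCM10 and SYTA.

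Hormone, pigment and clock genes were also among the 15. BIM2 encodes a bHLH protein that acts with BES1 in brassinosteroid responses and shares a gap of 632 bp with MGP3. The region there, on chromosome 1 from 25940668 to 25942101, had folds of 5.17, 6.33 and 5.63. Its summits lay 179.5 to 186.5 bp from the centre of the gap in all replicates, counted without regard to side. CLH1, for a chlorophyllase, shares 579 bp with AT1G19660, and its region from 6802367 to 6803678 on chromosome 1 had the low folds of 3.76, 4.72 and 3.81 but many tags, at 1152, 1501 and 1441. Summits of replicates 1 and 3 lay on the side of AT1G19660 there, outside the gap. LHY, for a morning factor of the clock, is separated from the transporter gene UMAMIT28 by 572 bp. Summits in this region, from 37546 to 38466 on chromosome 1, were 18.5, 24.5 and 2.5 bp from the centre of the gap, and the folds were 7.92, 6.94 and 5.19.

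The other 8 regions lay beside the actin gene ACT11 and AT3G12100, beside ARLA1D and AT5G67550, beside the calcium pump gene ACA4 and AT2G41550, beside ASE2, for the first enzyme of purine synthesis, and AT4G34750, also known as SAUR49, beside the calmodulin gene CAM3 and AT3G56810, between AT1G19490 and AT1G19500, beside the phosphatase gene PP2CG1 and AT2G33690, and beside the nudix hydrolase gene NUDT16 and AT3G12590. The region at ARLA1D had folds of 3.78, 8.73 and 4.95, the widest spread among them. At CAM3 the replicate 3 peak had its summit 1338 bp from the centre of the gap, beyond the region, while those of replicates 1 and 2 lay 190.5 and 202.5 bp from the centre.

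Genes of light signalling and the clock stood beside occupied short gaps. The lists were chosen with earlier results of these data known, in which such genes often held regions, so their counts are a description. Of 62 light and phytochrome genes, 39 lay beside a short gap, and 15 of their 49 short gaps held a region (30.6%), against 18.8% of all short gaps and 19.7% of all gaps with the same lengths. Of 33 clock genes, 24 lay beside a short gap, and 13 of their 32 short gaps held one (40.6%), against 16.7% at the same lengths. Regions covered by all 3 replicates lay in 9 of the 49 gaps (18.4%) and 7 of the 32 (21.9%), against 7.87% of all short gaps. Peak midpoints lay in 12.2%, 30.6% and 22.4% of the light gaps and in 21.9%, 28.1% and 25% of the clock gaps in replicates 1, 2 and 3. Without replicate 2 the shares with a region were 16.3% for light and 28.1% for clock genes, against 9.22% of all short gaps, and without replicate 3 they were 18.4% and 25%, against 9.70%. With peaks at a false discovery rate of 1% or less, the light share came to 20.4% and the clock share to 34.4%, against 14.5% of all short gaps.

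Together these lists gave 28 regions in gaps of 73 to 951 bp, of which 22 reached both genes, 16 were covered by all 3 replicates and 5 were on the series list. PCL1, also known as LUX, encodes the DNA-binding member of the evening complex of the clock. Its region on chromosome 3 from 17182148 to 17183264 filled the 481 bp to AT3G46630 and had folds of 4.99, 4.19 and 3.94. The LNK genes, whose proteins are coactivators that work with morning clock factors, were represented by AT3G54500 (LNK2) with 5.60, 4.71 and 4.65, AT3G12320 (LNK3) with 5.22, 5 and 4.2, and AT5G06980 (LNK4) with 4.67, 3.04 and 4.07. Replicate 1 had the highest fold in each of these 4 regions.

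SPA1 and AT2G46360 lie 830 bp apart, and a region of 1529 bp covered the gap and entered SPA1 by 342 bp and AT2G46360 by 357 bp. It ran from 19027187 to 19028715 on chromosome 2, with folds of 4.02, 6.95 and 5.27 and with 848, 2450 and 1302 tags. Its summits all lay in the gap, 93.5, 85.5 and 89.5 bp from the centre, counted without regard to side. Whether they fell on the same side was not examined. Replicate 2 stood highest in fold and tags. CRY2, for a blue-light photoreceptor, lies 298 bp from c-NAD-MDH1, for a malate dehydrogenase. There the region had folds of 3.90, 5.60 and 4.27, and all 3 summits were on the CRY2 side, 437.5 to 449.5 bp from the centre of the gap and outside it.

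PKS2, for a phytochrome kinase substrate protein that acts in phototropism and leaf positioning, had a region on each side. That in the 249 bp towards AT1G14270 had folds of 5.27, 6.02 and 5.99, with summits 31, 73 and 47 bp from the centre of the gap. The one in the 722 bp towards SBH2 had folds of 2.99 and 3.77 in replicates 2 and 3 and no peak in replicate 1. The B-box genes BBX19 and BBX23 had folds of 7.03, 4.82 and 6.25 and of 4.2, 5.82 and 5.4. At BBX19 the summits did not agree, with replicates 1 and 3 on the side of AT4G38950 and replicate 2 on that of BBX19.

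COP1, for the ubiquitin ligase that represses light responses in darkness, shares 359 bp with AGO6, and the region there had folds of 4.04, 3.52 and 5.15. DDB1A, for a subunit of the ligases that act with COP1 and DET1, had 3.97, 4.00 and 4.74 in the gap towards YAO. PHYD, for a red-light phytochrome, had 3.11, 4.72 and 3.20 in a gap of 131 bp, and the clock and flowering gene GI had 3.49, 3.98 and 3.61 in one of 73 bp. The clock gene CCA1 had 5.86, 3.55 and 3.99 in the 449 bp towards PSI-P. All 5 regions had peaks in each replicate, with folds below those of LHY in each, though COP1 was close in replicate 3 (5.15 against 5.19).

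**Figure D5:**
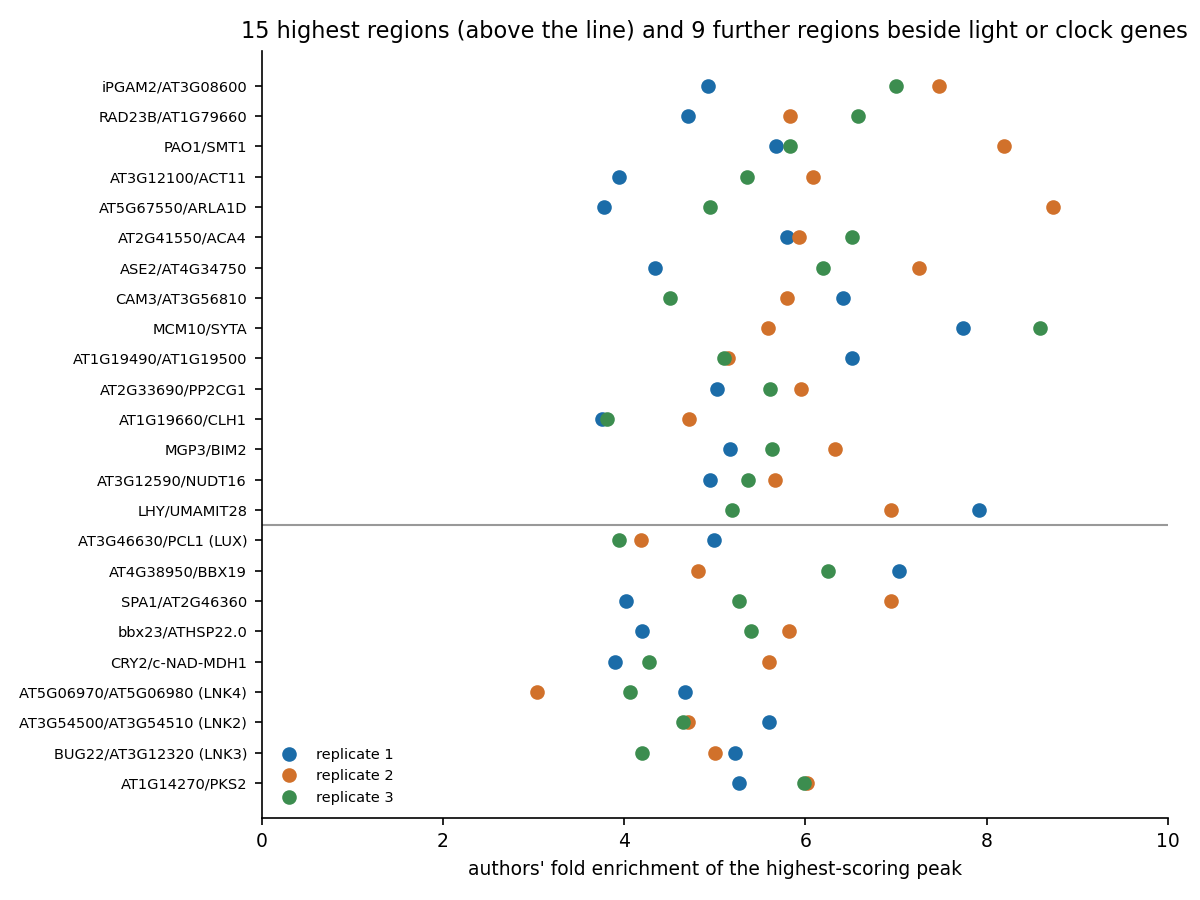
The authors' fold enrichment of the highest-scoring peak in each replicate, for the 15 highest short-gap regions (above the line) and 9 further ones beside light or clock genes (below). Each row is a gap named by the genes on either side. The replicate that stands highest differs from region to region, with LHY/UMAMIT28 highest in replicate 1 (7.92) and AT5G67550/ARLA1D in replicate 2 (8.73).

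Photosynthesis and ribosomal protein genes stood above all gaps of the same lengths in the full count. For regions covered by all 3 replicates their shares were near that of all short gaps. That second comparison was not made at the same lengths, and their gaps were shorter, with medians of 154 and 185 bp against 298 bp. Photosynthesis genes had a region in 12 of 51 short gaps (23.5%), against 15.7% of all gaps with the same lengths. They included DRT112, for plastocyanin, PSAG, for a subunit of photosystem I, LHCB4.2, GAPA and RBCS3B. Those covered by all 3 replicates lay in 4 of the 51 gaps (7.84%), as over all short gaps (7.87%). Ribosomal protein genes had one in 21 of 89 (23.6%), against 16.3% at the same lengths, and 7 (7.87%) held one covered by all 3 replicates. Hormone signalling genes had one in 11 of 68 (16.2%), against 20.6% at the same lengths, and among these were GAI, for a repressor of gibberellin responses, EIN3, for a main factor of ethylene responses, and BAK1, for a co-receptor of brassinosteroids. Only 1 of the 68 hormone gaps held a region covered by all 3 replicates.

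Gaps between genes with like symbols did not stand above other gaps. Where both genes had symbols of letters and a number, 328 of 1605 short gaps held a region (20.4%), and where the letters were the same, as in PME2 and PME1, 42 of 277 did (15.2%), although these gaps were longer, with a median of 435 bp against 313 bp. Examples covered by all 3 replicates were PME2 and PME1, for pectin methylesterases, with folds of 3.75, 3.83 and 5.99, BGLU27 and BGLU16, for beta-glucosidases, with 4.84, 4.99 and 6.08, and UGT73B3 and UGT73B2, for glycosyltransferases, with 6.95, 4.77 and 6.02. Another annotated gene lay in 698 short gaps, and 145 of these (20.8%) held a region, against 18.7% of the short gaps without one. Gaps with a tRNA gene had a region centred beside it in 75 of 219 cases (34.2%), against 18.8% of all short gaps and 21.6% of all gaps with the same lengths. Gaps with a long noncoding RNA gene, the most common type, went the other way, with 46 of 320 (14.4%) against 24.2% at the same lengths. Midpoints inside these other genes themselves do not count here. Gaps that hold such a gene therefore had less sequence that could count than their lengths give, and the shares were not corrected for this.

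Neighbouring short gaps were occupied at similar rates whether or not the first of them held a region. Of 7582 pairs of short gaps next to each other, the second held a region in 20.2% of cases when the first did and in 19.6% when the first did not. Most occupied gaps (1832) stood alone. The longest runs were 4 occupied gaps in a row, of which there were 5. One of them, chosen here after its values were seen, includes the gaps on both sides of PSB27, for a photosystem II assembly factor, and the gap between POR C, for a protochlorophyllide oxidoreductase of chlorophyll synthesis, and AT1G03650.

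The folds on either side of the limit of 1000 bp overlapped. Just inside were the regions between AT1G68340 and AT1G68350 (folds of 3, 3.58 and 4.88), between AT3G03100 and XPO1B (4.16 and 4.21, with no peak in replicate 3) and between AT3G06530 and REP (4.4, 5.33 and 4.11). Each of these gaps was 1000 bp long. Just outside, 1 bp over the limit, were those between AT5G02460 and DPA (6.15, 3.87 and 5.85) and between AT5G12980 and CLE40 (5.16 and 3.87, with no peak in replicate 3), and 2 bp over it was that between AT2G44000 and AT2G44010 (4.44 and 4.18 in replicates 2 and 3). Of gaps of 900 to 1000 bp 33.1% held a region, and of those longer than 1000 and up to 1100 bp 33.4%.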

How the data were processed

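Per the submitters' processing notes, Bowtie was the aligner and TAIR10 the genome build. No source used here gives the program that called the peaks or its background. Columns of the deposited replicate lists, which have no header, were read from layout and values: start, end, length, summit offset, a whole-number tag count per peak (deposited with no normalisation stated), the authors' score (taken to be a multiple of -log10 of p), the authors' fold enrichment (a ratio) and a deposited false discovery rate in percent. Only peaks past the authors' thresholds are listed (score of at least 50, rate up to 4.96%). In the authors' list for the whole series the signal is a peak height of unstated scaling. Its 3 samples carry no replicate number that could be matched to the titles.

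The gene table was RefSeq's for assembly TAIR10.1 (37887 nuclear genes, 27432 of them protein-coding), which was used for names, neighbours and gap lengths. None of its coordinates is printed. Overlapping genes were treated as 1 block. The table holds no strand and no sequence. The comparisons by gene orientation and of promoter motifs that had been planned were therefore not run, and the planned 5 named regions per orientation became the 15 highest overall.

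Shared regions, gaps and classes were computed with Python 3.11.15, numpy 2.4.6 and pandas 2.3.3 and tested on simulated data. A region took the values of the highest-scoring peak that overlapped it by at least 1 bp in each replicate. Differences were tested over the 3 replicates by a two-sided exact sign-flip permutation test. The members and lists were chosen with earlier results of these data known. Gene lists were matched on symbols and synonyms, with 7 symbols unmatched. After the values were seen, 4 genes of another function that share a symbol or synonym with a light or clock gene were left out. Named regions were the 15 highest by mean score percentile, the 10 highest beside light or clock genes and 3 on each side of the gap limit. Others were added after their values were seen: the other light and clock regions, the family pairs, the PSB27 run and the highest region of the series list. Alternatives were other gap limits, support, position and rate limits, and leaving out each replicate.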

Additional observations from a re-analysis of the deposited data

How the results depend on the processing

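No paired analysis was possible because only 1 group of samples was analysed here, apart from the differences between classes of regions, which were all taken within each replicate. The count of 2427 regions was 1179 to 2225 with 1 replicate left out, 1270 with gaps of 500 bp or less and 1137 with stretches covered by all 3 replicates. The fold difference of 0.05 from other shared regions was 0 to 0.09 with 1 replicate left out, and it turned to -0.075 against longer gaps, to -0.044 within width classes and to -0.18 against longer gaps within width classes. The share of short gaps with a region (18.8%) was 9.22% to 17.1% with 1 replicate left out, 8.75% for stretches of all 3 replicates and 37.6% for any overlap. For gaps beside light genes (30.6%) these values were 16.3% to 30.6%, 18.4% and 51.0%, and for those beside clock genes (40.6%) they were 25% to 37.5%, 21.9% and 56.25%. At a false discovery rate of 1% or less they were 20.4% and 34.4%, and with genes matched by symbol alone 28.8% and 38.2%. Within width classes the excess of short-gap over other regions became 0.19 percentage points for cover by all 3 replicates and 0.34 for the series list. The alternatives for the shares, the width classes and the matching of symbols were chosen after seeing the data. These drops follow in part from fewer peaks or a wider rule, and otherwise the cause was not tested. The share of regions reaching both genes stayed within 1 SD in all 5 alternatives. The planned comparisons by orientation and the motif comparison were not run, since strand and sequence were not used here. Library depth is unknown, so no limit can be put on gaps without a peak. The 3 replicates allow no p below 0.25, and whether the replicates were grown apart is given only by the word biological.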
